A study of Cricetiscus sungorus with 24 samples.

Results

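Solute carriers of the Slc and Slco families, without the mitochondrial carriers of Slc25, were followed in the kidney of the Djungarian hamster across photoperiod and after prolactin (PRL) injection. The members were all gene symbols that start with Slc or Slco and a digit, each represented by its transcript with the most counts. They numbered 153 of 9681 genes in the photoperiod experiment and 261 of 15842 genes in the PRL experiment, 265 of 15960 genes in either, with 149 in both, 4 in the first alone and 112 in the second alone. In the photoperiod experiment, kidneys came from adult males that stayed in long photoperiod (LP, 16 h of light, n = 4), or had spent 12 weeks (SP12wk, n = 4) or 28 weeks (SP28wk, n = 4) in short photoperiod with 8 h of light. In the PRL experiment, kidneys came from adult females that were all moved from LP to short photoperiod for 8 weeks and then received daily intraperitoneal injections for 3 days, either of vehicle, a mixture of dimethyl sulfoxide and saline (SAL, n = 6), or of 18 µg PRL in that vehicle (PRL, n = 6). The SAL and PRL kidneys alike were tissue kept from an earlier experiment. The experiments differ in sex, sequencing run and depth, and no test was made between them. The comparisons ask whether kidney transcripts follow photoperiod and whether PRL given in short photoperiod moves the same tissue. Levels are given as CPM, the gene's share of its library's counts scaled to a common library size, with the SD between animals. The tables hold no transcript lengths, so levels of different genes are read shares and not molecules per length. Each frozen kidney was cut across, with a part used for sections and the rest kept for molecular work. How much cortex and medulla a piece held is not given. In such tissue of mixed cell types, fewer cells of a type and less RNA per cell cannot be told apart.

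Solute carriers move sugars, phosphate, amino acids, organic ions and salt across cell membranes, and most of what the glomerulus filters is taken back through them. The early proximal tubule is known for the sodium-glucose, sodium-phosphate and neutral amino acid carriers of its brush border and for the organic anion carriers of its basal side, and the late, straight part for high-affinity glucose, cystine and peptide uptake. The thick ascending limb and the distal convoluted tubule take up sodium chloride through a pair of related cotransporters that loop and thiazide diuretics block. Energy for most of these steps comes from the sodium pump.

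Not all members are carriers of the plasma membrane. The symbol pattern also takes 4 genes that are no carriers: Slc9a3r1 and Slc9a3r2, scaffold proteins that hold brush-border carriers in place, and Slc4a1ap and Slc7a6os, which are named after a binding partner and a neighbouring gene. The Slc35 family, with 22 members in the PRL experiment and 15 in the photoperiod experiment, serves nucleotide sugars in the Golgi apparatus and endoplasmic reticulum. Library totals were 15687.5 to 57584.9 counts in the photoperiod experiment, where 1 count was worth 17.4 to 63.7 CPM, and 174053 to 756523 counts in the PRL experiment, where 1 count was worth 1.32 to 5.75 CPM. Members took 0.356% to 0.766% of a library's counts in the former and 0.395% to 0.654% in the latter. In the photoperiod experiment 39 members had 10 or more counts over the 12 libraries and 114 had fewer, 44 had a count in only 1 library, and 69 had a count in the 4 libraries that the test required. In the PRL experiment 179 members had 10 or more counts and 82 had fewer, 84 had a count in all 12 libraries, and 184 passed the filter of 6 libraries. The tissue carried the markers of its label. In the PRL experiment, 5 of 7 proximal tubule markers that are no carriers (Lrp2, Miox, Gatm and Fbp1 among them) summed to 1383 to 3923 CPM in SAL and 1684 to 4521 CPM in PRL, while Cubn and Kap were not analysed here. Of 4 adrenal markers only Cyp11a1 was listed, at 0 to 17.2 CPM, and none in the photoperiod experiment. Blood markers (4 globin genes and Alas2) summed to 8908 to 19490 CPM in the PRL experiment and, in the photoperiod experiment, to 23037 ± 6559 CPM in LP, 31909 ± 11074 in SP12wk and 28550 ± 5366 in SP28wk (SD, n = 4).

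Among the sodium-coupled sugar carriers, the most counts in both experiments were assigned to Slc5a2, the high-capacity glucose carrier of the early proximal tubule (SGLT2). In the PRL experiment its level was lowest at 59.4, at the median 70.2 and highest at 116 CPM in SAL, and 47.4, 87.1 and 114 CPM in PRL, from 165 and 213 counts. The groups overlapped over almost their whole range, and the log2 fold change of PRL against SAL was 0.10 ± 0.25 (SE; edgeR, adjusted p = 0.998; 95% interval −0.39 to 0.59). Slc5a1, the high-affinity carrier of the late segment (SGLT1), had 11 counts in SAL and 22 in PRL, 5.33 ± 3.57 and 8.72 ± 3.37 CPM. Slc5a10, a sodium-coupled carrier of mannose and fructose, was at 52.5 ± 35.2 CPM in SAL and 49.6 ± 25.2 CPM in PRL (SD, n = 6). Slc2a2, the low-affinity glucose exit carrier of the basolateral side, gave 29 counts. Among other facilitative sugar carriers, the fructose carrier Slc2a5 gave 108 and Slc2a1, the glucose carrier of most cells, gave 83. The sodium-coupled lactate carriers were low, with 30 counts for Slc5a8 and 9 for Slc5a12. In the photoperiod experiment Slc5a2 had 14 counts in all. It was at 94.1, 0, 0 and 0 CPM in LP, 123, 0, 0 and 28.3 in SP12wk and 158, 0, 28.6 and 52.1 in SP28wk. Each group held at least 1 kidney without a count, and no difference could be detected from so few counts, since the 95% interval of SP28wk minus LP ran from −0.81 to 3.61 around a log2 fold change of 1.40 ± 1.13.

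The phosphate carrier with the most counts in the PRL experiment was Slc34a1, the main sodium-phosphate cotransporter of the proximal brush border (NaPi-IIa). In SAL its lowest, median and highest levels were 64.0, 102 and 269 CPM and in PRL 67.2, 178 and 291 CPM. The median was higher in PRL, but both groups ran from about the same low to about the same high kidney, and the log2 fold change of 0.40 ± 0.29 was not called (edgeR, adjusted p = 0.998; 95% interval −0.17 to 0.98). Slc34a3, its minor partner in the same membrane (NaPi-IIc), was at 14.7 ± 10.7 CPM in SAL and 11.8 ± 12.3 CPM in PRL. The 5 phosphate carriers together reached 183 ± 74.2 CPM in SAL and 217 ± 80.5 CPM in PRL. Of these, Slc20a1 and Slc20a2, which feed cells with phosphate in most tissues, made up a minor share with 57 and 76 counts, and Slc34a2, the intestinal and lung form, had 24 counts. Across the photoperiod groups Slc34a1 gave 13 counts, 3 in LP, 2 in SP12wk and 8 in SP28wk, and Slc20a2 gave 14. The level of Slc34a1 was 37.5 ± 46.0, 25.1 ± 50.2 and 69.1 ± 48.7 CPM in these groups (SD, n = 4), with at least 1 kidney at 0 in each.

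The amino acid and peptide carriers were the largest group by counts, with 47 members, 2337 counts in SAL and 2749 in PRL. They summed to 1113 ± 388 CPM in SAL and 1134 ± 358 CPM in PRL (SD, n = 6). Late proximal carriers had the most counts among them. Slc7a13, which takes up aspartate, glutamate and cystine in the straight segment, was lowest at 67.2, at the median 230 and highest at 406 CPM in SAL and 79.4, 236 and 437 CPM in PRL. Slc3a1 (rBAT), the heavy chain that carries Slc7a9 and Slc7a13 to the brush border, showed 51.2, 158 and 265 CPM in SAL and 75.1, 160 and 214 CPM in PRL. Slc7a9 (b0,+AT), the cystine and dibasic amino acid carrier whose loss causes cystinuria, showed 44.8, 98.6 and 143 CPM in SAL and 47.4, 110 and 213 CPM in PRL. For these carriers kidneys of one group lay several-fold apart and the groups overlapped over most of their range. Slc6a18, a neutral amino acid carrier of the late segment (B0AT3), was at 168 ± 96.2 CPM in SAL and 161 ± 41.9 CPM in PRL. Its early-segment relative Slc6a19 (B0AT1) was far lower, with 18 and 13 counts and levels of 7.38 ± 8.91 and 6.88 ± 3.85 CPM, and its log2 fold change was −0.55 ± 0.64 (edgeR, adjusted p = 0.998). Slc1a1, the glutamate carrier EAAT3, was at 31.9 ± 18.3 and 45.1 ± 21.0 CPM and the peptide carrier Slc15a2 at 42.4 ± 19.4 and 38.4 ± 22.7 CPM. The basolateral exchangers Slc7a7 and Slc7a8 gave 69 and 67 counts. Slc6a20b, an imino acid carrier, was at 29.0 ± 8.63 and 33.8 ± 20.1 CPM, and Slc6a13, a carrier of γ-aminobutyric acid and taurine, at 15.7 ± 7.25 and 14.5 ± 9.72 CPM. Slc36a2, a proton-coupled glycine and proline carrier, had 1 count.

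**Figure D1:**
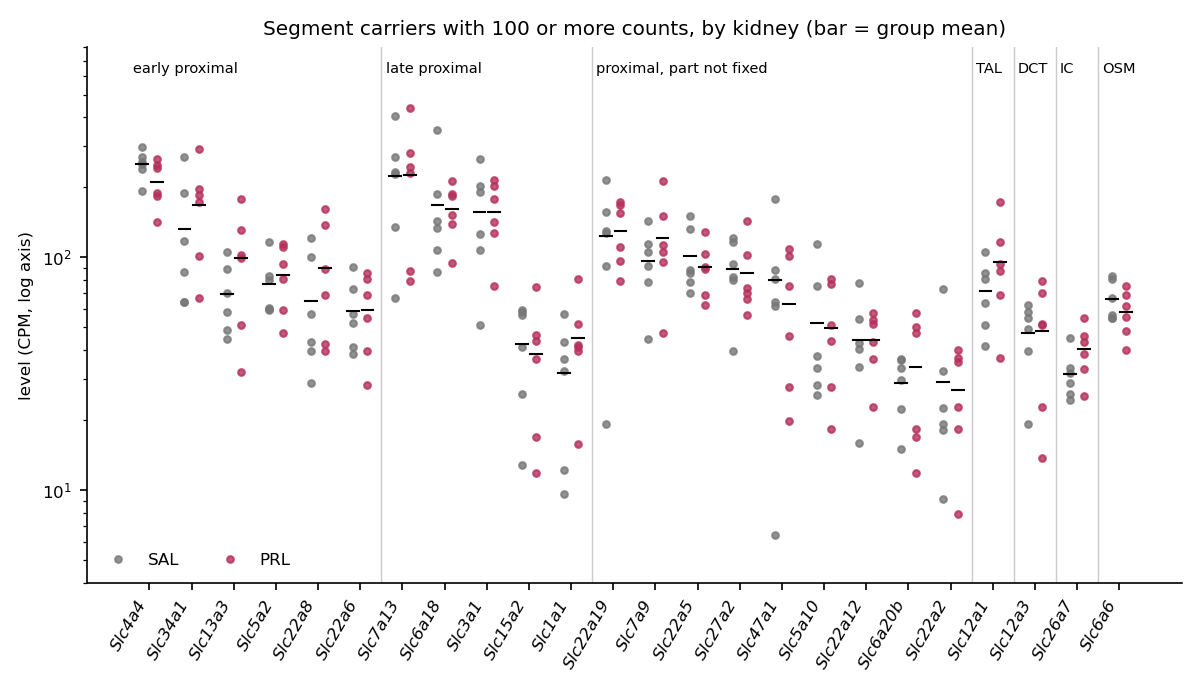
Levels in CPM (log axis) of segment carriers with 100 or more counts in the PRL experiment, 1 point per kidney, SAL in grey and PRL in red, with a bar at each group mean. TAL is thick ascending limb, DCT distal convoluted tubule, IC intercalated cells and OSM osmolyte carriers. The points of SAL and PRL overlap for every carrier, and the spread within a group is wider for Slc7a13, from 67.2 to 406 CPM in SAL, than for Slc4a4, from 192 to 297 CPM.

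In the photoperiod experiment the same proximal amino acid carriers were at a few counts per kidney. Slc3a1 was at 47.0, 56.1, 55.5 and 38.8 CPM in LP, 0, 63.7, 351 and 198 in SP12wk and 0, 83.0, 85.7 and 17.4 in SP28wk. The mean of SP12wk rested on replicates 3 and 4, with 7 counts each, while the other kidneys had 0 to 3 counts. The log2 fold change was 1.78 ± 0.86 for SP12wk against LP (edgeR, adjusted p = 0.615) and −1.60 ± 0.78 for SP28wk against SP12wk (edgeR, adjusted p = 0.777). Slc6a18 had 4, 7 and 2 counts in LP, SP12wk and SP28wk, with a log2 fold change of −1.96 ± 1.12 for SP28wk against SP12wk (edgeR, adjusted p = 0.902). Slc7a13 gave 8 counts, 5 of them in SP28wk replicate 4, which was the deepest library. Slc7a9 was at 185 ± 100, 122 ± 56.8 and 147 ± 64.4 CPM in LP, SP12wk and SP28wk (SD, n = 4) and had a count in every kidney. Slc6a19 gave 1 count, Slc15a2 gave 5 and Slc1a1 gave 4. The 28 amino acid and peptide carriers listed summed to 1005 ± 134 CPM in LP, 828 ± 293 in SP12wk and 728 ± 71.1 in SP28wk. Of the 13 tested 0 were called in any of the 3 comparisons. Of 5086 genes, 1 was called for SP12wk minus LP, 7 for SP28wk minus SP12wk and 11 for SP28wk minus LP.

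Organic anions and cations are secreted by basolateral uptake and apical release in the proximal tubule. Among the uptake carriers of organic anions in the PRL experiment, Slc22a6 (OAT1) was lowest at 38.4, at the median 54.6 and highest at 91.3 CPM in SAL and 28.4, 62.0 and 85.4 CPM in PRL. Its groups covered the same range and the log2 fold change was 0.03 ± 0.27 (edgeR, adjusted p = 0.998; 95% interval −0.50 to 0.55). Slc22a8 (OAT3) ranged from 28.8 to 122 CPM in SAL and from 39.5 to 161 CPM in PRL. Slc13a3, which supplies the dicarboxylates that these exchangers spend, was at 69.4 ± 23.7 and 99.0 ± 52.9 CPM in SAL and PRL (SD, n = 6). Slc22a2 (OCT2), through which organic cations enter, was at 29.1 ± 22.8 and 27.0 ± 12.7 CPM. They leave through Slc47a1 (MATE1), which ranged from 6.40 to 178 CPM in SAL and from 19.9 to 109 CPM in PRL. Slc22a5, the carnitine carrier OCTN2, was at 101 ± 32.5 and 90.5 ± 24.1 CPM, the urate carrier Slc22a12 at 44.3 ± 20.7 and 44.3 ± 12.9 CPM, and Slc22a19, an organic anion carrier of rodents, at 123 ± 65.3 and 130 ± 39.9 CPM. Slc17a3 and Slc17a1, phosphate-family carriers that export urate, gave 94 and 55 counts, the sulfate carriers Slc13a1 and Slc26a1 gave 87 and 68.1, and the ascorbate carrier Slc23a1 gave 42. Outside the organic ion families, Slc27a2, which takes up long-chain fatty acids, was at 88.9 ± 29.7 and 85.5 ± 32.4 CPM. Slco4c1 gave 12 counts, the nucleoside carrier Slc28a1 gave 5, and Slc22a13 and Slc22a30 gave 2 each. Over 43 organic ion carriers the summed level was 1016 ± 298 CPM in SAL against 1039 ± 310 CPM in PRL. Of the 27 tested 0 were called, as were 0 of 10696 genes. None of the 27 had an unadjusted p under 0.05 by edgeR, beside 4.88% of all genes, a difference that 27 carriers are too few to interpret.

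In the photoperiod experiment Slc22a5 was at 282, 224, 277 and 117 CPM in LP, 81.7, 127, 151 and 56.5 in SP12wk and 119, 0, 85.7 and 156 in SP28wk. The 3 highest kidneys were in LP, but the fourth LP kidney lay within the range of both short photoperiod groups. The fatty acid carrier Slc27a2 was at 94.1, 56.1, 111 and 77.7 CPM in LP, 0, 63.7, 0 and 56.5 in SP12wk and 39.5, 41.5, 0 and 34.7 in SP28wk, where each kidney was below each LP kidney, from 4 counts against 7 (edgeR, log2 fold change −1.10 ± 1.01, adjusted p = 0.878). The share of all genes with such a separation was not counted, and 1 count was worth 17.4 to 63.7 CPM in these libraries. In LP, SP12wk and SP28wk, Slc22a19 gave 5, 5 and 5 counts and Slc22a6 gave 2, 4 and 8. For Slc22a6 the log2 fold change of SP28wk minus LP was 1.37 ± 1.12 (edgeR, adjusted p = 0.821). The 25 organic ion carriers listed summed to 769 ± 377, 666 ± 323 and 557 ± 215 CPM in LP, SP12wk and SP28wk. The sums of single kidneys ran from 388 to 1129 CPM in LP, 327 to 1104 in SP12wk and 249 to 747 in SP28wk, so the groups overlapped. Other proximal carriers, Slc22a2, Slc22a8, Slc22a12, Slc13a3, Slc17a1, Slc17a3, Slc23a1, Slc26a1 and Slc47a1, gave 1 to 6 counts each over the 12 kidneys, as did Slc6a13, Slc6a20b, Slc5a10, Slc7a7, Slc7a8 and Slc34a3.

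The sodium chloride cotransporters mark the segments behind the proximal tubule. Slc12a1 (NKCC2), the furosemide-sensitive cotransporter of the thick ascending limb, was in SAL lowest at 41.6, at the median 72.3 and highest at 105 CPM and in PRL at 36.9, 90.4 and 172 CPM. The highest kidney was PRL replicate 5 and the lowest PRL replicate 6, so the SAL kidneys lay within the range of the PRL kidneys, and the log2 fold change was 0.36 ± 0.26 (edgeR, adjusted p = 0.998; 95% interval −0.16 to 0.88). Slc12a3 (NCC), the thiazide-sensitive cotransporter of the distal convoluted tubule, was at 19.2, 52.1 and 62.2 CPM in SAL and 13.8, 51.6 and 79.3 CPM in PRL, with a log2 fold change of 0.10 ± 0.31 (edgeR, adjusted p = 0.998). The sodium-calcium exchanger Slc8a1 of the connecting tubule was at 24.4 ± 11.8 and 17.7 ± 14.5 CPM. The other chloride cotransporters serve cell volume in many cell types. Of these, Slc12a2 (NKCC1) gave 209 counts, and the potassium-chloride cotransporters Slc12a4 and Slc12a7 gave 78 and 20. Among the photoperiod kidneys Slc12a1 was at 0, 168, 388 and 0 CPM in LP, 0, 0, 50.2 and 84.8 in SP12wk and 0, 0, 28.6 and 17.4 in SP28wk. LP thus held both the highest kidneys and a pair of kidneys without a count. The log2 fold change was −2.42 ± 1.05 for SP28wk minus LP (edgeR, adjusted p = 0.529), from 2 counts against 10, −1.26 ± 0.96 for SP12wk minus LP and −1.16 ± 1.21 for SP28wk minus SP12wk. Umod, Egf and Cldn16, the thick limb markers listed in this experiment, summed to 70.7 ± 49.0, 76.9 ± 119 and 50.6 ± 51.0 CPM in LP, SP12wk and SP28wk from 6, 7 and 9 counts, while Kcnj1 was not analysed here. Slc12a3 gave 3 counts, 0 in LP, 2 in SP12wk and 1 in SP28wk, and Slc8a1 gave 2.72. The pair summed to 0 in each LP kidney and to 28.3 to 57.7 CPM in SP12wk, from 3.81 counts, and SP28wk ran from 0 to 75.4 CPM. Each SP12wk kidney held only 0.905 to 1 count of the pair. The share of all genes with such a separation was not counted.

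Among the bicarbonate and proton carriers, Slc4a4 (NBCe1), the basolateral sodium-bicarbonate exit of the early proximal tubule, had the most counts of all members in both experiments. Its CV (the SD over the mean) of 19.3% over the 12 kidneys of the PRL experiment was the lowest of 56 members with 100 or more counts. Counting error alone would give a CV of 11.7% at its counts. Some members with fewer counts lay below their counting CV, such as Slc22a23 at 20.8% beside 33.6%. The rank therefore does not make Slc4a4 the steadiest carrier between animals. Slc4a4 was lowest at 192, at the median 254 and highest at 297 CPM in SAL and at 142, 215 and 264 CPM in PRL. The groups overlapped and the log2 fold change was −0.34 ± 0.20 (edgeR, adjusted p = 0.998; 95% interval −0.73 to 0.05). Slc9a3 (NHE3), the sodium-proton exchanger of the brush border, was at 0, 11.1 and 18.9 CPM in SAL and 11.5, 17.7 and 36.8 CPM in PRL, from 22 and 46 counts. Its log2 fold change of 0.89 ± 0.44 had an unadjusted p of 0.0491 and an adjusted p of 0.998. In intercalated cells of the collecting duct, Slc26a7 was at 31.7 ± 7.48 and 40.3 ± 10.4 CPM, the chloride-bicarbonate exchanger pendrin (Slc26a4) at 8.20 ± 4.49 and 9.61 ± 3.94 CPM, the anion exchanger Slc4a1 at 2.69 ± 2.32 and 5.24 ± 1.82 CPM, and Slc4a9 gave 13.6 counts. In the shallower photoperiod libraries Slc4a4 was at 753, 1066, 333 and 1554 CPM in LP, 940, 1084, 502 and 424 in SP12wk and 1423, 996, 943 and 1407 in SP28wk. SP28wk was the most even group and held no kidney under 943 CPM, whereas LP ran from lower to higher than both others. The log2 fold change was 0.92 ± 0.47 for SP28wk minus SP12wk (edgeR, adjusted p = 0.804) and 0.67 ± 0.46 for SP28wk minus LP (edgeR, adjusted p = 0.767). Slc26a7 gave 9, 6 and 7 counts and Slc9a3 gave 2, 0 and 3 in LP, SP12wk and SP28wk.

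The experiments differed in how the counts of the early proximal carriers were divided. Slc4a4 held 82.7% of the counts of the early proximal list in the photoperiod experiment (320 counts against 67 on the other 11 carriers listed; 95% Wilson interval 78.6% to 86.1%) and 29.1% in the PRL experiment (1010 counts against 2458 on 12 carriers; 27.6% to 30.7%). Slc34a1, with 732 counts beside the 1010 of Slc4a4 in the PRL experiment, had 13 beside 320 in the photoperiod experiment. These intervals cover counting error only. The experiments also differed in sex, run and depth, so that these and any other source of the difference cannot be told apart. Without Slc4a4, the early proximal carriers summed to 167 ± 117 CPM in LP, 187 ± 83.3 in SP12wk and 247 ± 128 in SP28wk, from 14, 18 and 35 counts. The groups overlapped in these sums as they did with Slc4a4, where they were 1094 ± 532, 925 ± 263 and 1439 ± 316 CPM.

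**Figure D2:**
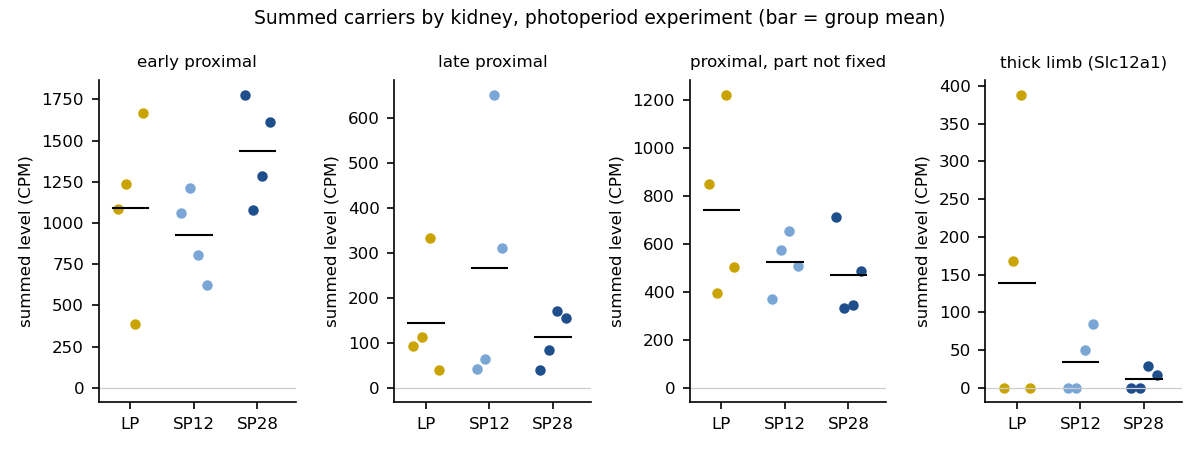
Summed level in CPM of the carriers of 4 segment lists in the photoperiod experiment, 1 point per kidney, with a bar at each group mean. The ranges of LP, SP12wk and SP28wk overlap in all 4 panels, and the late proximal sum of SP12wk reaches 653 CPM in replicate 3 while replicates 1 and 2 are at 40.9 and 63.7 CPM.

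The osmolyte and urea carriers serve the medulla and the collecting duct, where cells balance the salt and urea around them. Slc6a6, the taurine carrier, ranged from 54.8 to 83.2 CPM in SAL and from 40.2 to 75.4 CPM in PRL. Its CV over the 12 kidneys was 21.1%, where counting error alone would give 22.6%. The inositol carrier Slc5a3 gave 46 counts, the betaine carrier Slc6a12 gave 9 and the urea carrier Slc14a2 gave 12, while Slc14a1 was not analysed here. Under the different photoperiods Slc6a6 had a count in every kidney and was at 242 ± 128 CPM in LP, 172 ± 117 in SP12wk and 188 ± 55.5 in SP28wk, and Slc5a3 gave 1 count. Among metal carriers of the photoperiod experiment, Slc30a4, a zinc exporter of vesicles, was at 94.1, 224, 166 and 155 CPM in LP, 40.9, 0, 50.2 and 0 in SP12wk and 39.5, 0, 57.1 and 52.1 in SP28wk. Each LP kidney was above each short photoperiod kidney, from 13, 2 and 6 counts. The log2 fold change was −2.44 ± 1.01 for SP12wk minus LP (edgeR, adjusted p = 0.5997) and −1.44 ± 0.82 for SP28wk minus LP (edgeR, adjusted p = 0.640). An exact permutation test gave the smallest p that 4 against 4 kidneys allow in both comparisons (two-sided, 0.0286), before any adjustment for the genes tested. Slc30a4 was named for its small p in these comparisons, so the exact test on the same values adds no separate evidence. The share of all genes with such a separation was not counted. In the PRL experiment Slc39a4, a zinc importer, gave 4 counts in SAL and 17 in PRL.

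Many carriers differed several-fold between kidneys of the same group. Over the 12 kidneys of the PRL experiment the 56 members with 100 or more counts had a median CV of 40.4%, from 19.3% to 119%, and the 5 late proximal carriers among them had a median CV of 50.1%. Counting error alone would give median CVs of 26.3% and 14.2%. SAL replicate 6 held the lowest level of 19 of the 56 members, and of 4 of the 5 late proximal ones. PRL replicate 5 held the highest level of 20 and was the shallowest library, where 1 count was worth 5.75 CPM. How many of all genes had their extremes in these kidneys was not counted. Not every proximal carrier had these extremes, since Slc22a5 was highest in SAL replicate 6 and Slc4a4 in SAL replicate 4. Summed early proximal carriers were at 978, 695, 977, 649, 621 and 451 CPM in SAL and at 822, 1007, 546, 690, 1034 and 610 CPM in PRL. SAL replicate 6, PRL replicate 3, PRL replicate 6 and SAL replicate 5 were the 4 lowest, 2 in each group. The same 4 kidneys had the highest summed adipose markers (Adipoq, Plin1 and Fabp4), at 192, 198, 269 and 236 CPM, where the other kidneys ran from 35.7 to 189.6 CPM. Most of this sum was Fabp4, a fatty acid binding protein that endothelial cells also make, while Adipoq was at 0 to 28.7 CPM and Plin1 at 0 to 8.51 CPM. Adipoq alone did not pick out the same 4 kidneys. It was highest in PRL replicate 5, which had the highest early proximal sum, followed by SAL replicate 5 and PRL replicate 6. SAL replicate 6 and PRL replicate 3 had 1 count of Adipoq each and no count of Plin1. The part of the adipose markers in the carrier levels was not tested. The late proximal sums ran from 231 to 1137 CPM in SAL and from 293 to 994 CPM in PRL. The proximal markers followed nearly the same order of kidneys. Across the 12 kidneys Pearson's r between the early proximal carriers and the summed proximal markers was 0.968 (p = 1e-05 by permutation test, the smallest that 100000 resamples can give, and 4e-05 after adjustment for 4 relations), and Spearman's rho was 0.972 (permutation test, p = 2e-05, adjusted 8e-05). The r was 0.954 without the 2 kidneys farthest from the median, 0.968 on deviations from the group means, and 0.942 without Slc4a4, an alternative chosen after the data were seen. For the segments behind the proximal tubule r was lower, and the differences between the relations were not tested. Slc12a1 and Umod, the most abundant thick limb protein gene, had an r of 0.565 (permutation test, p = 0.0557, adjusted p = 0.0751) while rho was 0.678 (permutation test, p = 0.0191, adjusted 0.0382), and r was 0.659 without the 2 farthest kidneys. Slc12a3 with Calb1 and Pvalb, a pair of distal calcium-binding proteins, had an r of 0.566 (permutation test, p = 0.0563, adjusted p = 0.0751) and a rho of 0.517 (p = 0.0887, adjusted p = 0.118, by permutation test), with 0.596 without the 2 farthest. The osmolyte and urea carriers Slc5a3, Slc6a12 and Slc14a2, at 2.84 to 31.6 CPM in sum, gave an r of −0.01 with Aqp2 (permutation test, p = 0.966, adjusted p = 0.966) and a rho of 0.00699 (permutation test, p = 0.991, adjusted p = 0.991), with 0.153 without the 2 farthest. Aqp2 was at 3.06 to 28.4 CPM, where 1 count was worth 1.32 to 5.75 CPM. With both sides so near the counting floor, this r cannot decide whether they are related. All 4 relations share the libraries and their depth.

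**Figure D3:**
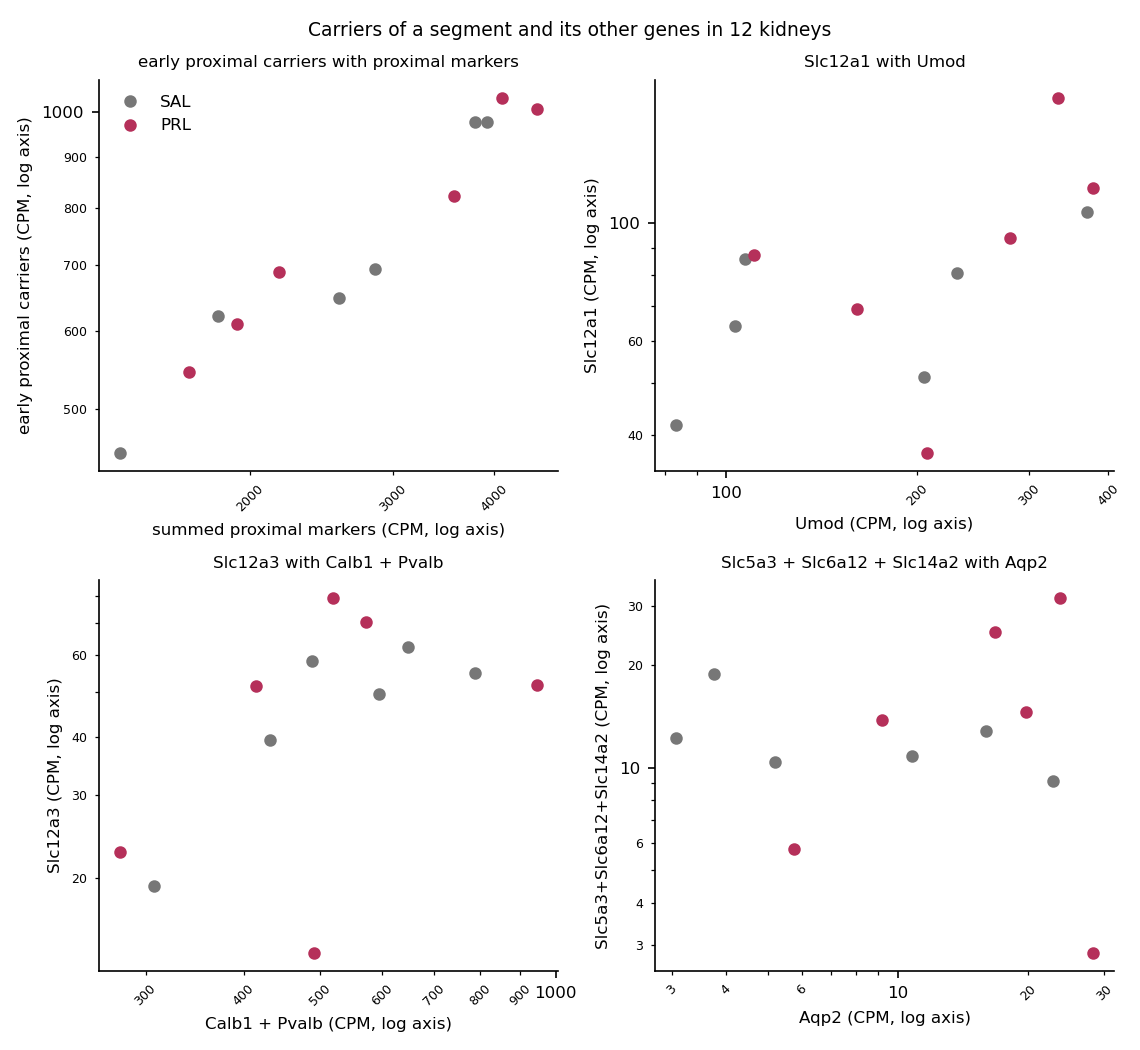
Level in CPM (log axes) of segment carriers against other genes of the same segment in the 12 kidneys of the PRL experiment, SAL in grey and PRL in red. The early proximal carriers rise with the proximal markers from 451 to 1034 CPM with SAL and PRL kidneys mixed along the line, while the osmolyte carriers show no such line with Aqp2. The osmolyte carriers (2.84 to 31.6 CPM) and Aqp2 (3.06 to 28.4 CPM) lie near the counting floor.

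Slc52a2, a riboflavin carrier, had the highest mean level of all members in the PRL experiment, 251 CPM, and the next highest, after Slc4a4, in the photoperiod experiment. The former rested on SAL replicate 6, without which its mean was 179 CPM, below Slc7a13 at 239 and Slc4a4 at 235 CPM, and the SAL mean fell from 232 to 70.9 CPM. In SAL it was at 64.9, 98.8, 68.5, 39.5, 82.6 and 1040 CPM and in PRL at 154, 107, 526, 147, 172 and 513 CPM. With all kidneys the groups overlapped through SAL replicate 6 alone, and the log2 fold change was 0.12 ± 0.50 (edgeR, adjusted p = 0.998). Without SAL replicate 6, a choice made after its value was seen, every PRL kidney was above every SAL kidney, and the log2 fold change was 1.90 ± 0.32 (edgeR, adjusted p = 5.14e-04). Across the photoperiod groups Slc52a2 was at 47.0, 449, 888 and 194 CPM in LP, 572, 0, 0 and 84.8 in SP12wk and 553, 664, 486 and 122 in SP28wk. The log2 fold change of SP28wk minus SP12wk was 1.40 ± 0.56 (edgeR, adjusted p = 0.614) and, without SP12wk replicate 1, 3.34 ± 0.78 (edgeR, adjusted p = 0.0235). Other transcripts, chosen after their values were seen, were high in the same kidneys. Gm32262, a predicted gene, was at 5775 CPM in SAL replicate 6, 3112 CPM in PRL replicate 3 and 2399 CPM in PRL replicate 6, and at 187 to 671 CPM in the other 9 kidneys. Bc1, a short noncoding RNA, was at 6857, 3361 and 2913 CPM in these 3 kidneys and at 227 to 901 CPM in the others. Among the photoperiod kidneys Gm32262 was at 1512 CPM in SP12wk replicate 1 and at 151 to 311 CPM in the other SP12wk kidneys. Whether all counts assigned to Slc52a2 come from that gene was not tested, so its levels are given as assigned. The same 3 kidneys of the PRL experiment had early proximal sums of 451, 546 and 610 CPM.

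**Figure D4:**
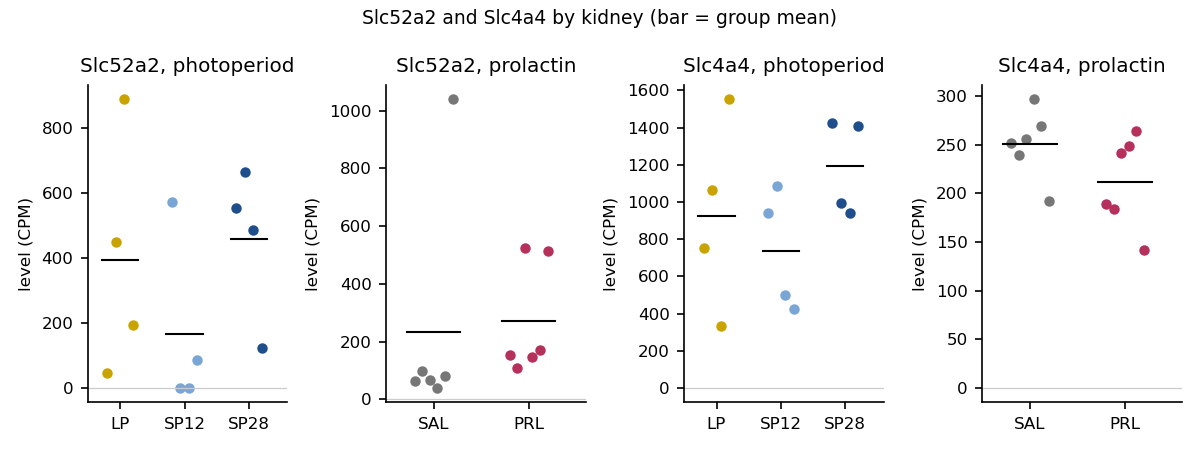
Levels in CPM of Slc52a2 and Slc4a4 in each kidney of both experiments, with a bar at each group mean. Slc52a2 is at 1040 CPM in SAL replicate 6 and at most 98.8 CPM in the other SAL kidneys, whereas Slc4a4 stays within 142 to 297 CPM over the 12 kidneys of the PRL experiment.

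No carrier was called between PRL and SAL. By edgeR with Benjamini-Hochberg adjustment 0 of the 184 members tested were called, as were 0 of 10696 genes (0% called over all genes), and DESeq2 called 0 members as well. At an unadjusted p under 0.05, 4 members were higher and 3 lower in PRL, 3.80% of those tested beside 4.88% of all genes, and DESeq2 gave 1 higher and 3 lower. The median log2 fold change was 0.05 over the members and 0.03 over all genes. By segment list, 0 of 13 early proximal, 0 of 7 late proximal and 0 of 17 other proximal carriers were called, with medians of 0.03, −0.00 and 0.01. The smallest p among those higher in PRL belonged to Slc9a3r1, the scaffold NHERF1 that tethers Slc34a1 and Slc9a3 in the brush border. It was lowest at 0, at the median 4.88 and highest at 7.52 CPM in SAL and at 0, 17.1 and 18.4 CPM in PRL. All PRL kidneys but replicate 3, which had no count, were above the highest SAL kidney, and the log2 fold change was 1.52 ± 0.54 (edgeR, adjusted p = 0.620). Slc39a4, with a log2 fold change of 1.70 ± 0.73, and Slc35a5, a nucleotide-sugar carrier family member with 1.18 ± 0.56, followed with adjusted p of 0.903 and 0.993. Of those lower in PRL, Slc33a1, the acetyl-CoA carrier of the endoplasmic reticulum, had levels of 43.3, 55.7 and 99.2 CPM in SAL and 28.4, 41.8 and 57.5 CPM in PRL. Of the PRL kidneys only replicate 5 exceeded the SAL median, and the log2 fold change was −0.71 ± 0.27 (edgeR, adjusted p = 0.677). Slc16a12, a creatine carrier of the monocarboxylate family, had −0.64 ± 0.29, and Slc8b1, the sodium-calcium exchanger of the mitochondrial membrane, had −1.42 ± 0.68 from 15 and 6 counts, both with an adjusted p of 0.993. Among 18 tested partners and regulators of carriers, such as the sodium pump beta subunit Atp1b1 and the transcription factor Hnf4a, 0 were called. The smallest p was that of Sgk1, a kinase that raises carrier abundance at the membrane, with 0.58 ± 0.24 (edgeR, adjusted p = 0.882).

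**Figure D5:**
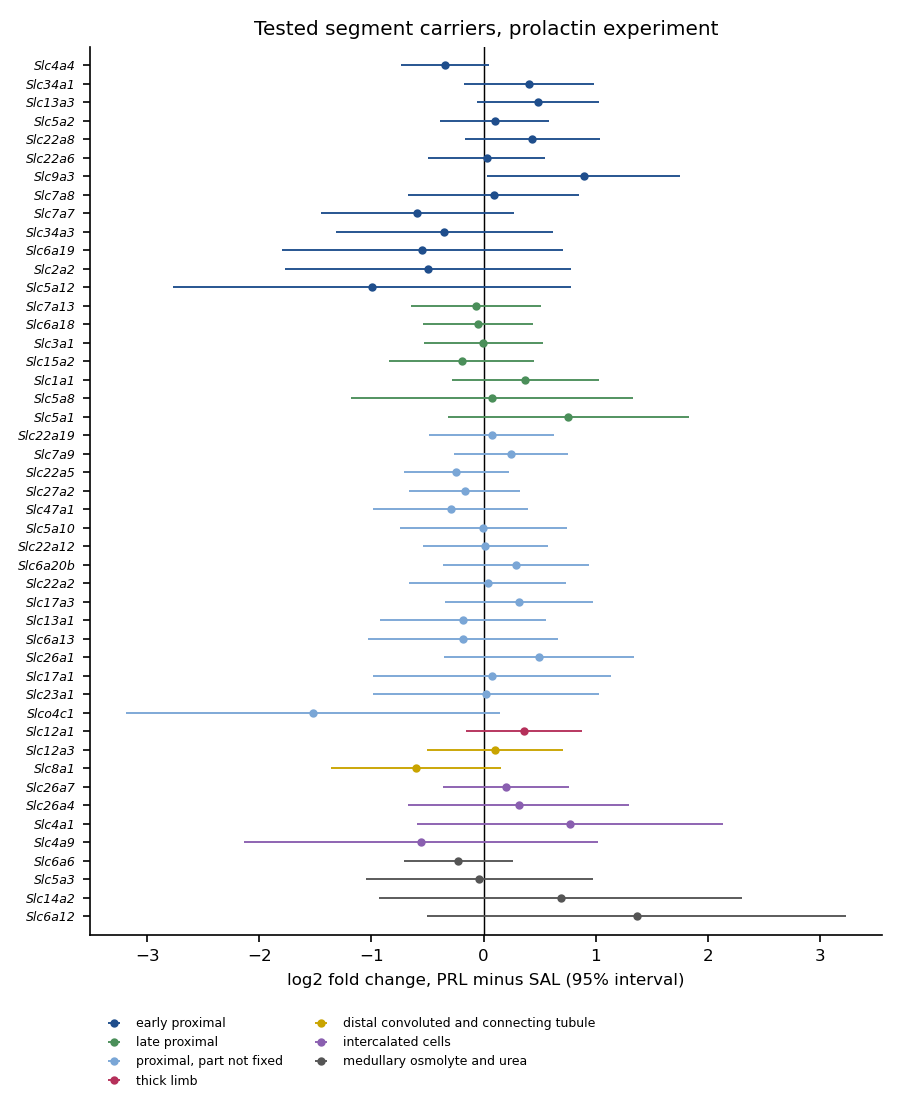
Log2 fold change of PRL minus SAL with its 95% interval (edgeR) for tested carriers of the segment lists, coloured by list. All intervals but that of Slc9a3, which starts at 0.03, include 0, and those of carriers with few counts are the widest, such as Slc6a12 with 9 counts.

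Photoperiod gave no called carrier either, in tables with few calls. For SP12wk minus LP, edgeR called 0 of 69 members tested and 1 of 5086 genes (0.0197% called). At an unadjusted p under 0.05 there were 2 members higher and 1 lower in SP12wk, 4.35% beside 7.27% of all genes. For SP28wk minus SP12wk it called 0 members and 7 genes (0.138%), with 3 members higher and 2 lower at an unadjusted p under 0.05, 7.25% beside 6.1% of all genes. For SP28wk minus LP it called 0 members and 11 genes (0.216%), with 2 members higher and 2 lower, 5.80% beside 8.61%. DESeq2 called 0 members in each comparison and gave 0 to 1 at an unadjusted p under 0.05. The SP28wk comparisons carry a shift of all genes under TMM scaling, a median log2 fold change of 0.18 against LP and 0.16 against SP12wk, beside 0.01 and 0.27 for the members and 0.00 for all genes and −0.26 for the members in SP12wk minus LP. The median SE of a member was 1.10 to 1.17 on the log2 scale in these comparisons, against 0.49 in the PRL experiment.

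Beside the members already given, the smallest p-values of the photoperiod comparisons belonged to members with a group at 0, for which only counts are given. Slc37a4, the glucose-6-phosphate carrier of the endoplasmic reticulum, had 0 counts in LP and 4 in SP12wk, and Slc34a2 had 0 and 3. Slc35b1, a nucleotide carrier of the endoplasmic reticulum, had 2 counts in LP and 0 in SP12wk. Slco3a1, an organic anion carrier, had 0 counts in SP12wk and 4 in SP28wk. Slc22a7 (OAT2) had 0 counts in LP and 4 in SP28wk, whereas Slc35b4, a nucleotide-sugar carrier, had 4 in LP, 3 in SP12wk and 0 in SP28wk. All of these had adjusted p of 0.516 or more. The limit of 3 counts was worth 52.1 to 191 CPM per library here, so that a carrier below that level can be at 0 in a single library by counting alone. For all 4 libraries of a group to be at 0 in this way the level must be lower, and that level was not worked out.

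Partners that serve these carriers at the membrane were tested from the same fits. Of 13 partners and regulators tested in the photoperiod experiment, 0 were called in any comparison, where 1 to 11 of 5086 genes were called. Atp1b1, the beta subunit of the sodium pump, had a log2 fold change of −0.96 ± 0.46 for SP12wk minus LP (edgeR, adjusted p = 0.615) and −0.54 ± 0.45 for SP28wk minus LP (edgeR, adjusted p = 0.825). Pdzk1ip1 (MAP17), a small membrane protein that raises the activity of Slc5a2, had 1.80 ± 0.52 for SP28wk minus LP (edgeR, adjusted p = 0.119) and 1.03 ± 0.49 for SP28wk minus SP12wk (edgeR, adjusted p = 0.766). Cltrn (collectrin), which carries Slc6a19 and Slc6a18 to the membrane, had 3.14 ± 1.10 for SP28wk minus LP (edgeR, adjusted p = 0.336). Pth1r, the receptor through which parathyroid hormone lowers Slc34a1 at the membrane, had 2.13 ± 0.75 for SP12wk minus LP (edgeR, adjusted p = 0.575). In the PRL experiment Pdzk1ip1 and Cltrn had log2 fold changes of −0.33 ± 0.18 and −0.07 ± 0.27, both with an adjusted p of 0.998.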

How the data were processed

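Polyadenylated RNA of 24 kidneys was sequenced as nanopore cDNA, 12 libraries per flow cell. The library kit is given as PCR-cDNA in the labels and as direct cDNA in the methods. The authors ran Guppy (basecalling), Porechop (adapters), Filtlong (length and quality) and minimap2 against mouse, so hamster reads carry mouse RefSeq names and reads unlike mouse are lost. The submitters' processing notes name minimap2 and Salmon. The authors deposited estimated counts per transcript, not scaled to depth. A gene's transcripts often repeat the same reads (over all transcripts, totals rose 2.09 to 3.31 times), so the transcript with the highest total stood for each gene, and CPM used the sum of these.

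Counts were rounded and fitted in R 4.3.3 with edgeR 4.0.16 (quasi-likelihood, TMM, 1 model per experiment, no covariate). Genes needed a count in 4 of 12 libraries (photoperiod) or 6 of 12 (PRL), and the threshold was an adjusted p of 0.05 (Benjamini-Hochberg over all genes tested). Errors of log2 fold changes are SE, and intervals are 95% intervals. DESeq2 1.42.0 was an alternative, beside other filters, summed transcripts, a replicate block and each library left out. The fit was tested on simulated data. Relations used log2(CPM + 2.95) and 100000 permutations. Replicates are separate animals. Same-numbered kidneys did not deviate together in every pair, so the numbers were not taken as pairs. Members, lists and tests were chosen with earlier results of these data known. Named were the listed segment carriers with a count, the 3 members of smallest p per direction and comparison (no member was called), and the 5 of highest mean CPM per experiment. Other members given by counts, and the transcripts Gm32262 and Bc1 were named after their values were seen. Sequences and gene lengths were not used here. Some named members and partners are not reported here, though sums and counts include them.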

Additional observations from a re-analysis of the deposited data

Results flagged for a closer look

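Of 57 groups of kidneys in which a level was examined, 1 held a kidney far from the others. Slc52a2 was at 1040 CPM in SAL replicate 6, where the nearest SAL kidney was at 98.8 CPM. Chance alone sets about 1 in 20 such groups apart. The PRL comparison of Slc52a2 moved with this kidney, since its log2 fold change was 0.12 ± 0.50 (edgeR, adjusted p = 0.998) with it and 1.90 ± 0.32 (adjusted p = 5.14e-04) without it. It also had the lowest early proximal sum, 451 CPM, and the highest Gm32262 level, 5775 CPM, and whether all counts assigned to Slc52a2 come from that gene was not tested.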

How the results depend on the processing

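In the photoperiod experiment 114 of 153 members had fewer than 10 counts, which limits what could be detected there. No member was called by edgeR under the other scaling, filters, summed transcripts or DESeq2. With a replicate block, 1 member was called in PRL minus SAL, Slc52a2 (0.84 ± 0.24, adjusted p = 0.0487), and the block changed no other member's call. Leaving out 1 library gave 0 to 1 called members in PRL minus SAL (1 without SAL replicate 6) and 0 to 1 in SP28wk minus SP12wk (1 without SP12wk replicate 1), each time Slc52a2. Over all genes, PRL minus SAL gave 0 calls as reported, 94 with the block, 92 without a filter and 0 to 50 with 1 library left out. SP28wk minus LP gave 11 calls as reported, 0 with summed transcripts, 2 with DESeq2, 5 with the stricter filter and 10 to 52 with 1 library left out, and SP28wk minus SP12wk gave 7, 0, 2, 2 and 2 to 7. SP12wk minus LP gave 1 call as reported and 0 to 9 with 1 library left out.

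The relation of Slc12a1 with Umod had an r of 0.587 with a pseudocount 10 times as high and 0.45 to 0.695 with 1 kidney left out, that of Slc12a3 with Calb1 and Pvalb 0.582 with summed transcripts and 0.452 to 0.701, and that of the osmolyte carriers with Aqp2 0.195 with summed transcripts, 0.0675 with the higher pseudocount and −0.24 to 0.364. The log2 fold change turned sign for Slc34a1 in SP12wk minus LP (0.29 with summed transcripts, −2.96 to 0.54 with 1 kidney left out) and, in PRL minus SAL, for Slc22a6 (−0.0526 with summed transcripts, −8.99e-05 with DESeq2, −0.0260 with the block, −0.16 to 0.16 with 1 kidney left out) and Slc12a3 (−0.0321 with summed transcripts, −0.0230 with the block, −0.15 to 0.24). With 1 kidney left out it also ran from −0.45 to 3.33 for Slc5a2, −0.33 to 1.34 for Slc22a6 and −2.41 to 0.0206 for Slc12a1 in SP12wk minus LP, from −0.10 to 1.84 for Slc5a2 in SP28wk minus SP12wk, and from −0.0519 to 0.26 for Slc5a2 and −0.86 to 0.0188 for Slc6a19 in PRL minus SAL. The cause was not tested. Levels without SAL replicate 6 were an alternative chosen after seeing the data. Leaving out 1 of 6 kidneys always moves a mean by less than the SD that includes it. That the levels moved by less than this spread therefore does not show that they are steady. For Slc52a2 the SAL mean was 232 CPM with that kidney and 70.9 CPM without, where the other SAL kidneys ran from 39.5 to 98.8 CPM.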
